A study of Mus musculus with 6 samples.

Results

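The Reg genes encode small secreted proteins of the C-type lectin type, and the 7 members of the family in the mouse are Reg1, Reg2, Reg3a, Reg3b, Reg3d, Reg3g and Reg4. The members were taken by gene symbol: all 7 have 1 row each among the 23099 gene symbols of the files, and 6 of them, all but Reg4, reached the mean of at least 1 that was required for testing, as did 8802 genes in all. Polyadenylated RNA of the pancreas was sequenced from wild-type mice (WT, 3 libraries) and from Ela1-Myc mice (3 libraries), all aged 8 weeks. The Ela1-Myc genotype is named for Myc expressed from the elastase 1 promoter, which is active in acinar cells, the cells that secrete digestive enzymes, and no other allele or treatment is stated for either group. The sources used here give no strain or sex. The series concerns the need for Myc to fall as acinar cells mature, and the comparison asks how the adult pancreas differs where it is kept on. Myc itself was listed at 0 in 2 of the 3 WT libraries and read 4.10 in WT replicate 2, against 52.0, 34.4 and 34.2 in Ela1-Myc replicates 1 to 3.

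Reg proteins are best known from the exocrine pancreas and the gut. Acinar cells make Reg1 as an abundant secretory product, and several members are strongly induced when the pancreas is inflamed or injured. Reg3b, also called pancreatitis-associated protein, is the classical marker of acute pancreatitis, and Reg3g is known in the intestine as a lectin that kills Gram-positive bacteria. Induction of Reg3 genes is known to run through cytokines of the IL-6 and IL-22 type and the transcription factor STAT3, and Extl3 has been described as a receptor for Reg proteins.

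Values are the authors' adjusted FPKM, that is fragments per kilobase of transcript on a scale relative to the library, divided by 100000. FPKM as such lets levels of different genes be compared per length, but how these values were adjusted is unknown. Ranks, ratios and shares within a library assume that such a comparison still holds. The depth of each library is also unknown. A listed 0 does not show absence, because the pancreatic amylase gene Amy2a5 is also listed at 0 in WT replicates 1 and 3. Between 592 and 1426 of the 8802 tested genes were listed at 0 in each WT library, and at most 29 in each Ela1-Myc library. On the deposited scale 70.2% of tested genes were called higher in Ela1-Myc and 0.239% lower, with a median log2 change of 1.22. After median-of-ratios scaling, which divides each library by a factor that brings its typical gene to a common level, 17.1% were called higher and 7.1% lower, with a median of 0.22. Each Reg gene is therefore described on both scales and by its ratio to other genes of the same library, which dividing a library by a factor does not change (quantile normalization, also run, does change it). The RNA integrity number ran from 7.1 to 7.3 in WT and from 7.2 to 8.8 in Ela1-Myc, and with it as a covariate the calls were those of the deposited scale (Reg3a, Reg3b and Reg3g higher).

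Of the 7 genes, 6 lie together on chromosome 6 within 98 kb (78370861 to 78468872, GENCODE gene models on GRCm38), in the order Reg3b, Reg3d, Reg3a, Reg2, Reg1 and Reg3g. Reg3d and Reg3g are read from the minus strand and the other four from the plus strand. Reg4 lies alone on chromosome 3 (98222156 to 98236748). All 7 gene models have 6 exons with the start codon in exon 2, and their coding sequences run from 471 bases in Reg4 to 525 bases in Reg3a, Reg3b and Reg3d.

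**Figure D1:**
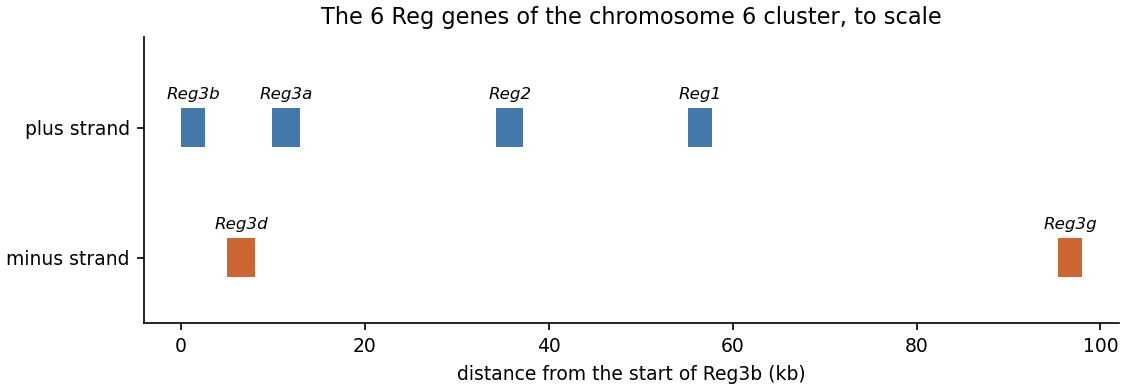
Map of the 6 Reg genes on chromosome 6, drawn to scale by distance in kb from the start of Reg3b; bars are whole genes, and the row gives the strand. Reg3b and its neighbour Reg3d sit side by side on opposite strands, while Reg3g lies apart at the far end of the 98 kb.

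The members are related but not identical copies, which bears on how well reads can be assigned. Reg1 and Reg2 share 82.6% of their aligned coding bases, the closest pair of the family. Reg3b shares 76.4% with Reg3g and 76.5% with Reg3a, and Reg3d shares 70.3% with Reg3b. The longest identical run between the mRNAs of any pair was 35 bases, between Reg3b and Reg3g, and that between Reg1 and Reg2 was 19 bases. The sources used here do not say how reads that match several members were counted, so the split between close relatives is uncertain.

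On the deposited scale Reg3g and Reg3b were higher in every Ela1-Myc library, unlike Reg1 and Reg3d, but Reg3b overlapped between the groups after scaling. For this contrast the start regions of these 4 members are shown. Each is the 250 bases before the RefSeq start site on GRCm38.p6, 5′ to 3′ in the direction of the gene; motifs were searched in these bases and the 50 that follow. Capitals mark every match, on either strand, to TATAAA (the TATA box), CACCTG (an E-box), TGGGAA (the core bound by RBPJ-type factors) and TTCNNNGAA (the element bound by STAT factors); the match to TTCNNNGAA in Reg3d overlaps one to TGGGAA.
Reg3g, chr6:78468875-78469124, minus strand: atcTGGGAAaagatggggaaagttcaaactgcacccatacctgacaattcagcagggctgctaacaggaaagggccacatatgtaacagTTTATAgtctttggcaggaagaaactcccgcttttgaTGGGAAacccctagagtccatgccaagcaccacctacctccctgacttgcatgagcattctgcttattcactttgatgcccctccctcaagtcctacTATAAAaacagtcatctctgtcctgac
Reg3b, chr6:78370635-78370884, plus strand: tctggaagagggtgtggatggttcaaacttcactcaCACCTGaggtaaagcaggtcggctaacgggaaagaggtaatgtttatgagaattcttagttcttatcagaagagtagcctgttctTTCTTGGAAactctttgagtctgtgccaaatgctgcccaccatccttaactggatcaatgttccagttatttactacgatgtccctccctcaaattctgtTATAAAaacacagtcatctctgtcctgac
Reg3d, chr6:78378866-78379115, minus strand: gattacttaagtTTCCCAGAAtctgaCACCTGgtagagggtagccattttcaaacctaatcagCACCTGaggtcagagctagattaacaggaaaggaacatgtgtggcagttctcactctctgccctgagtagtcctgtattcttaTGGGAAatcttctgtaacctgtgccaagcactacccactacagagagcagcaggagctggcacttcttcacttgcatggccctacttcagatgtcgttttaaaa
Reg1, chr6:78425733-78425982, plus strand: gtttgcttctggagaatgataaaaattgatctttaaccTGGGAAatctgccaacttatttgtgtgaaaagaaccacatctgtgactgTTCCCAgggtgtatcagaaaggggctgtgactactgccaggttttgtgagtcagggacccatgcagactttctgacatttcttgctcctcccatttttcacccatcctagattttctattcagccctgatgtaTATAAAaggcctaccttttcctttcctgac

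Reg3g and Reg3b had the longest identical run among the 21 pairs of these windows, 29 bases, and were alike at 71.4% of aligned bases; Reg3b and Reg3d were alike at 67.3%. A TATAAA began 30, 30, 29 and 27 bases before the start site in Reg1, Reg2, Reg3b and Reg3g and was not in the windows of the other three members; 13.6% of 32851 promoter windows of this length hold the motif on either strand. CACCTG was found in 5 members (Reg2, Reg3a, Reg3b, Reg3d and Reg4; 20.2% of all windows), TGGGAA in 5 (Reg1, Reg2, Reg3a, Reg3d and Reg3g; 25.6%) and TTCNNNGAA in Reg3b and Reg3d (8.3%). CACGTG, the E-box bound by MYC with MAX, was in none of the 7 windows and in 7.15% of all windows. These matches are descriptions of letters and were not tested for binding.

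Reg1 was by far the most abundant member in every library. Its WT values were 8432, 18919 and 26464 (replicates 1 to 3), and its Ela1-Myc values 16584, 11067 and 11482, all within the WT range. Ranked within each library, Reg1 was gene 19, 19 and 13 of 23099 in WT and gene 15, 13 and 17 in Ela1-Myc, so that it kept a place among the 19 highest genes in all 6 libraries. It made up between 92.0% and 98.5% of the summed Reg values in WT and between 92.6% and 95.5% in Ela1-Myc.

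The change of Reg1 depended on the scale. Its mean was 17939 ± 9056 over WT libraries and 13045 ± 3073 over those of Ela1-Myc (SD, n = 3 per group), a log2 change of -0.33 ± 0.456 (SE) that did not pass on the deposited scale (limma adjusted p = 0.506). Scaled by median of ratios, it fell by 1.87 log2 units (limma adjusted p = 0.0159), and under quantile normalization the direction turned to 0.46 (limma adjusted p = 0.245). The call after scaling was lost without WT replicate 3, Ela1-Myc replicate 2 or Ela1-Myc replicate 3 (limma adjusted p = 0.0514, 0.0762 and 0.0746). On the deposited scale Reg1 passed as lower without WT replicate 1 (-0.80, limma adjusted p = 0.0372) and with array weights (-1.04, limma adjusted p = 0.00624).

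Reg2, the closest relative of Reg1, varied more within WT than between the groups. It stood at 30.2, 237.2 and 1829 in the WT libraries, and at 363.8, 473.4 and 440.4 in those of Ela1-Myc. WT replicate 3 was the highest of all 6 libraries and WT replicate 1 the lowest, with the 3 Ela1-Myc values close together between them. The log2 change was 0.83 ± 1.16 (SE; limma adjusted p = 0.517) and turned to -0.70 after scaling (limma adjusted p = 0.697). It did not pass under any of the 21 alternatives run, the nearest being array weights (-1.82, limma adjusted p = 0.0532) and leaving out WT replicate 3 (2.30, limma adjusted p = 0.0549).

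Reg3d, a member of the Reg3 group that lies next to Reg3b, was not called higher on any scale run. It stood at 100.8, 355.5 and 414.1 in the WT libraries, and at 168.1, 133.9 and 154.3 in those of Ela1-Myc, so that WT replicates 2 and 3 were above all Ela1-Myc libraries and WT replicate 1 was below them. The log2 change was -0.70 ± 0.827 (SE; limma adjusted p = 0.445) on the deposited scale, where 99.1% of tested genes had a larger change, and -1.39 with array weights, where it passed as lower (limma adjusted p = 0.00681). After scaling Reg3d fell by 2.22 log2 units (limma adjusted p = 0.0193), and under quantile normalization by 2.30 (limma adjusted p = 0.00856). The call after scaling was lost without WT replicate 3, Ela1-Myc replicate 2 or Ela1-Myc replicate 3 (limma adjusted p = 0.0516, 0.0795 and 0.0746), while the direction stayed negative in all 21 alternatives run.

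Reg3g showed the clearest rise of the family. In WT it read 0.914 in replicate 2 and was listed at 0 in the other replicates, whereas Ela1-Myc replicates 1 to 3 read 32.3, 49.7 and 43.0. No WT library came near any Ela1-Myc library, and within the library Reg3g moved from rank 6345 in WT replicate 2 to ranks 882, 585 and 667 in Ela1-Myc. The log2 change was 5.08 ± 0.449 (SE; limma adjusted p = 2.53e-06) on the deposited scale and 4.26 ± 0.362 (limma adjusted p = 0.000971) after scaling, and 0.898% and 0.863% of tested genes had a larger change. It passed under all 20 alternatives that could be fitted, with log2 changes from 3.68 to 5.44 at a pseudocount of 1 on the divided scale.

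The size of the Reg3g rise cannot be given as a fold over the group, because 2 of its 3 WT values are listed zeros, which the p-values take as measured. Reg3g also met the mean of at least 1 only through its Ela1-Myc values, which fixes its direction among tested genes on the deposited scale. This filter also favours a rise after scaling. Of the 419 tested genes that were likewise at 0 in WT replicates 1 and 3 and above 0 in WT replicate 2, 96.2% were called higher on the deposited scale and 84.2% after scaling. Reg3g ranked 43 among these 419 by log2 change, whose median was 3.14.

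Reg3b, the pancreatitis-associated protein, was higher in every Ela1-Myc library than in every WT library on the deposited scale. WT replicates 2 and 3 read 75.1 and 47.3 and WT replicate 1 was listed at 0, whereas Ela1-Myc replicates 1 to 3 read 200, 200.5 and 130. The log2 change was 3.50 ± 1.26 (SE; limma adjusted p = 0.0231). Without WT replicate 1, the library with the listed 0, the change was 1.53 (limma adjusted p = 0.105), and after scaling without it 0.28 (limma adjusted p = 0.752). The call was also lost without Ela1-Myc replicate 1, 2 or 3 (limma adjusted p = 0.107, 0.0624 and 0.0753), with a pseudocount of 0.1 and with no filter. After scaling the values were 0, 84.1 and 77.6 in WT and 121.6, 127.6 and 60.7 in Ela1-Myc, the groups overlapped, and Reg3b did not pass (2.39, limma adjusted p = 0.316).

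Reg3a was the lowest of the Reg3 genes in Ela1-Myc and overlapped between the groups. WT replicates 2 and 3 read 6.19 and 24.1 and WT replicate 1 was listed at 0, whereas Ela1-Myc replicates 1 to 3 read 22.6, 28.1 and 17.7. WT replicate 3 thus lay above 2 of the 3 Ela1-Myc libraries. Reg3a was called higher on the deposited scale, at 2.05 ± 0.867 (SE; limma adjusted p = 0.0464), not after scaling (1.00, limma adjusted p = 0.56), and not without WT replicate 1 (0.80, limma adjusted p = 0.304). Of the 6 fits that leave out 1 library, that without WT replicate 3 alone kept the call (3.13, limma adjusted p = 5.87e-06).

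Reg4, a member known from the gut, stood at the bottom of the scale. In WT it stood at 0.00464, 0.00823 and 0.00174, which are the values that 4459 of the 23422 rows share within each of those libraries, and it was listed at 0 in all 3 Ela1-Myc libraries. Its mean was below 1, so it was not tested.

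**Figure D2:**
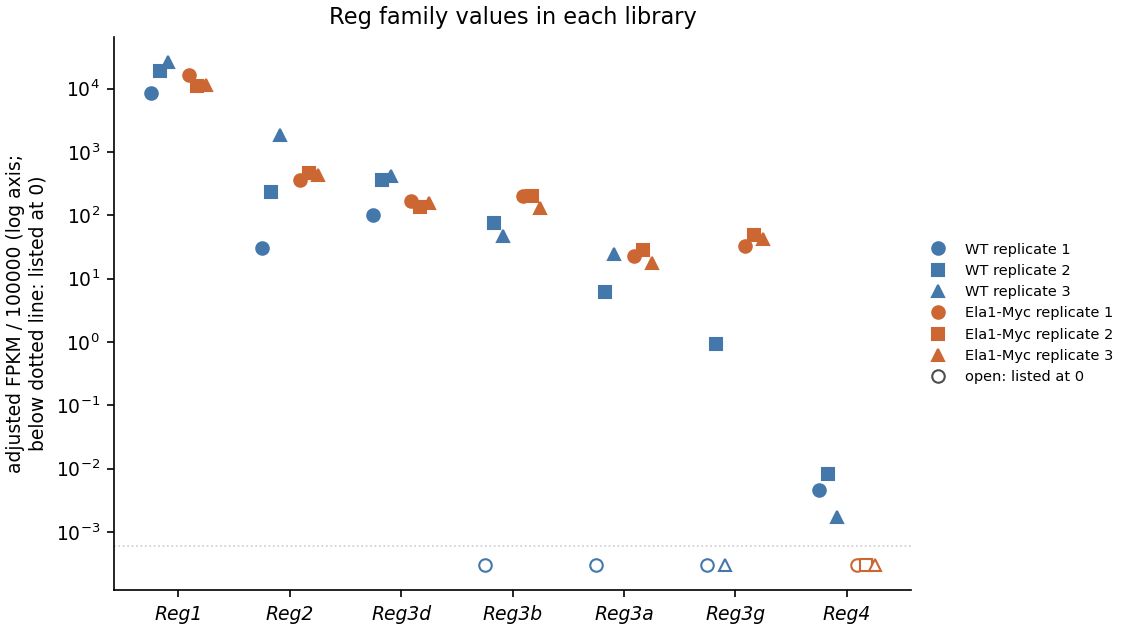
Value of each Reg gene (adjusted FPKM divided by 100000, log axis) in the 3 WT libraries (blue) and the 3 Ela1-Myc libraries (orange); each point is 1 library, and open points under the dotted line are listed at 0. Reg1 overlaps between the groups near the top, while Reg3g lies at 32.3 to 49.7 in Ela1-Myc against 0.914 or a listed 0 in WT.

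In all, 3 of the 6 tested members were called higher on the deposited scale (Reg3a, Reg3b and Reg3g) and none lower by limma, against 70.2% and 0.239% of all tested genes; at an unadjusted p under 0.05 the same counts held. The share of members called higher is below that of all genes. After scaling 1 of 6 was higher (Reg3g) and 2 lower (Reg1 and Reg3d), against 17.1% and 7.1%. Calls of lower after scaling were common among acinar products: 26 of 33 digestive enzyme genes were called lower and 4 higher. The groups did not overlap for 2 members on the deposited scale (Reg3b and Reg3g, both higher), where 75.3% of tested genes lay wholly above WT and 0.534% wholly below. After scaling they did not overlap for 3 members, Reg3g above and Reg1 and Reg3d below, against 28.9% and 17.2% of tested genes. With 3 libraries against 3, the exact two-sided permutation test cannot go below p = 0.1, which Reg3b and Reg3g reached on the deposited scale. Reg4 also reached it, lower in Ela1-Myc, but only through the value that 4459 rows share in WT.

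**Figure D3:**
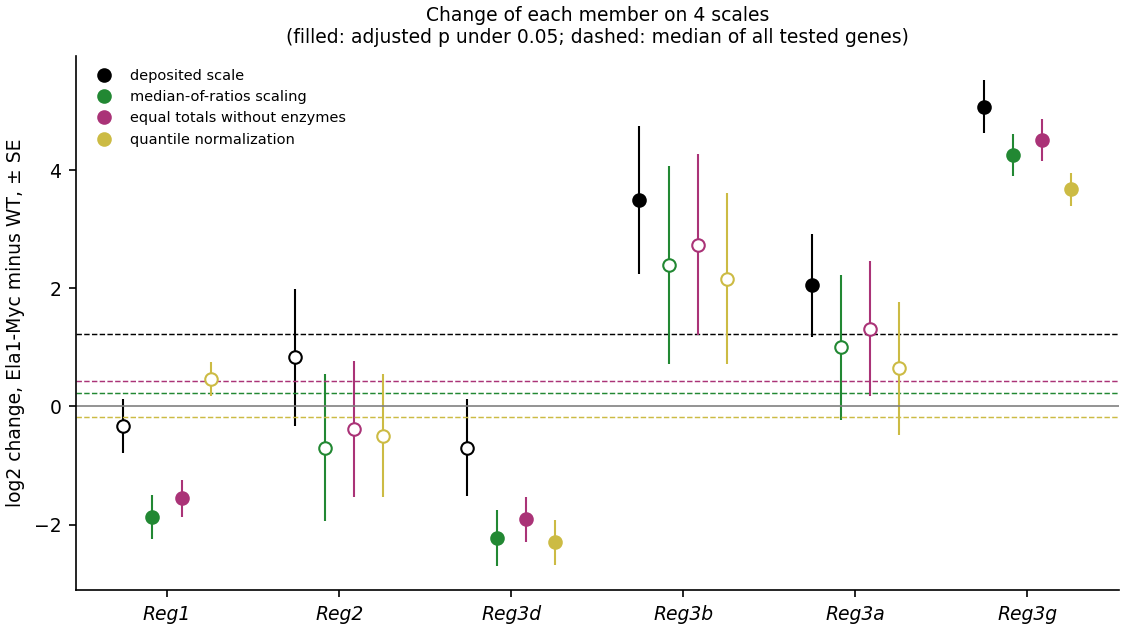
Log2 change (Ela1-Myc minus WT, with its SE) of the 6 tested Reg genes on 4 scales; filled points have a limma adjusted p under 0.05, and dashed lines give the median of all tested genes on each scale. Reg3g is filled on all 4 scales, Reg3b and Reg3a only on the deposited scale, and Reg1 changes direction between scalings.

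Relative to Reg1 of the same library, Reg3a, Reg3b and Reg3g were higher in every Ela1-Myc library than in every WT library. Reg3b was 0, 0.397% and 0.179% of Reg1 in WT and 1.21%, 1.81% and 1.13% of Reg1 in Ela1-Myc. Reg3g was 0.00483% of Reg1 in WT replicate 2 and 0.195%, 0.449% and 0.375% in Ela1-Myc. Reg3a was 0, 0.0327% and 0.0909% of Reg1 in WT and 0.136%, 0.254% and 0.154% in Ela1-Myc. For these 3 genes the groups did not overlap; the same held upwards for 81.8% of all tested genes set against Reg1 and downwards for 0.193%, so this order was that of most tested genes in these libraries.

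For Reg2 and Reg3d the groups overlapped in the ratio to Reg1. Reg2 was 0.358%, 1.25% and 6.91% of Reg1 in WT and 2.19%, 4.28% and 3.84% in Ela1-Myc (difference in the log2 ratio 1.18; exact two-sided permutation p = 0.5, n = 3 each). Reg3d was 1.20%, 1.88% and 1.56% of Reg1 in WT and 1.01%, 1.21% and 1.34% in Ela1-Myc (difference -0.36; exact permutation p = 0.3, n = 3 each). Both exact permutation p-values were 0.5 after Benjamini-Hochberg adjustment over these 2 ratios, the only 2 tested members beside Reg1 that were above 0 throughout.

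Reg3b was below its neighbour Reg3d in all WT libraries and above it in 2 of the 3 Ela1-Myc libraries. Reg3b was 0, 21.1% and 11.4% of Reg3d in WT and 118.9%, 149.7% and 84.2% of Reg3d in Ela1-Myc, a ratio picked after the values were seen. Set against Reg3d, 87.2% of tested genes lay wholly above WT and 0.0227% wholly below. Among WT libraries Reg3g was 1.22% of Reg3b in replicate 2, while 1 or both genes were listed at 0 in the others, and it was 16.2%, 24.8% and 33.1% of Reg3b in Ela1-Myc.

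**Figure D4:**
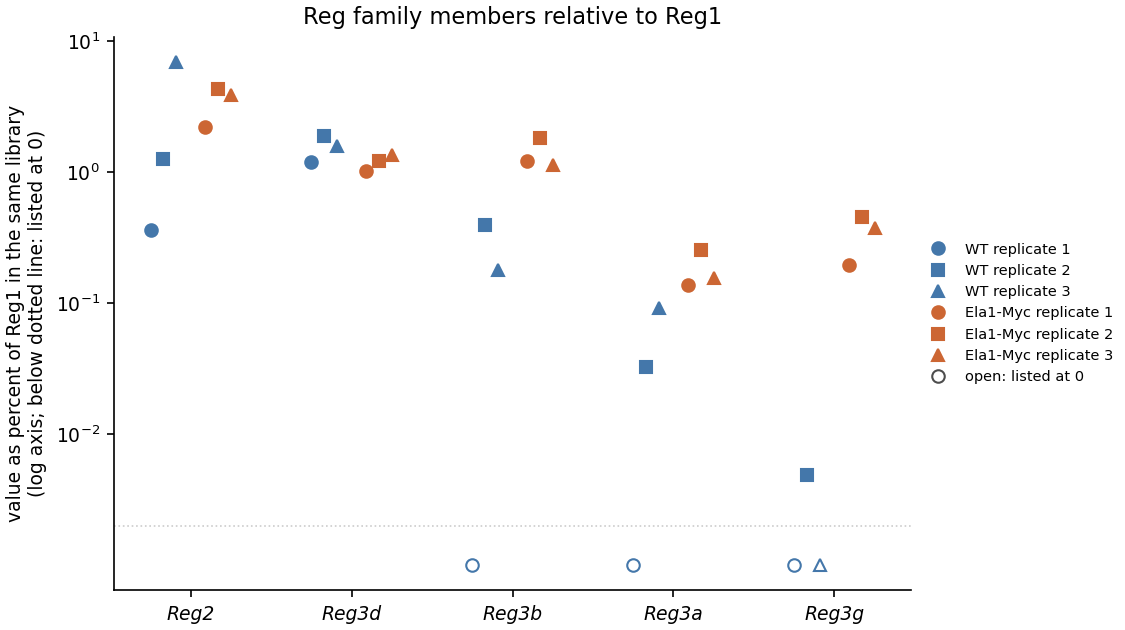
Each Reg gene as a percent of Reg1 in the same library (log axis), with 1 point per library, WT in blue and Ela1-Myc in orange; open points under the dotted line are listed at 0. Reg3b, Reg3a and Reg3g lie wholly above WT, while Reg2 and Reg3d overlap between the groups.

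The 7 genes together took 1.28%, 1.01% and 2.44% of a library's summed values in WT and 1.60%, 1.90% and 1.62% in Ela1-Myc. This share was 1.57% ± 0.761 among WT libraries against 1.704% ± 0.169 among those of Ela1-Myc (SD, n = 3 per group; exact two-sided permutation p = 0.8). Of the sum without 33 genes for digestive enzymes and other zymogen granule proteins, the family took 13.6%, 10.8% and 26.7% in WT and 6.17%, 4.93% and 5.34% in Ela1-Myc, so that the groups did not overlap (exact permutation p = 0.1, n = 3 each, the smallest possible). Tested genes listed at 0, far more frequent in WT, add nothing to that sum, and their part in the difference was not tested. Over all 23422 rows, zeros numbered 3474, 2207 and 4749 in WT and 6350, 5506 and 5476 in Ela1-Myc. The WT counts leave out the rows that, like Reg4, hold the shared low value in all 3 WT libraries. Those rows were all listed at 0 in all 3 Ela1-Myc libraries, so the counts of the groups are not alike. Relative to the enzymes, which are the other main acinar product, Reg1 was 1.39%, 1.07% and 2.47% of their summed values in WT and 2.06%, 2.86% and 2.17% in Ela1-Myc. WT replicate 3 lay within the Ela1-Myc range and the other WT libraries below it.

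Genes whose values followed a member most closely over the 6 libraries were looked up for the 3 members above 0 in all of them, among 6992 tested genes also above 0 throughout. The genes nearest to Reg3d were Gal, which encodes the neuropeptide galanin (Pearson r = 0.9991), Fn3k, fructosamine-3-kinase (0.9963), and Wars, a tryptophanyl-tRNA synthetase (0.9925). Gal stood at 28.3, 129.7 and 149 in the WT libraries, and at 53.3, 42.7 and 47.3 in those of Ela1-Myc, with WT replicates 2 and 3 high as in Reg3d. Those nearest to Reg1 were 1110054M08Rik (r = 0.9681), Fn3k (0.9586) and the somatostatin receptor gene Sstr2 (0.9576), and those nearest to Reg2 were the protease gene Prss36 (0.9653), 1110008J03Rik (0.9449) and the receptor kinase gene Tyro3 (0.9417). Reg1 and Reg3d were correlated with each other at r = 0.942 and Reg1 and Reg2 at 0.746. These are descriptions over 6 libraries whose values share each library's scale.

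Genes for the proposed Reg receptor and for the cytokine pathways known to induce Reg genes were called higher in part on the deposited scale and in no case after scaling. Of 30 listed genes 18 were tested; 9 were higher, none lower and 9 not called (median log2 change 0.97, against 1.22 for all tested genes). These 9 are 50% of the tested genes of the list, against 70.2% of all tested genes. After scaling limma called none higher and 3 lower (median -0.26, against 0.22), where 17.1% and 7.1% of all tested genes were called. The 3 lower genes were Lifr (log2 change -1.86, limma adjusted p = 0.0035), Extl3 and Il22ra1. Of the 9 called on the deposited scale, 6 (Stat3, Socs3, Osmr, Il17ra, Jak2 and Tyk2) had a WT mean below 1. These 6 met the filter through their Ela1-Myc values, which fixes their direction on that scale. At an unadjusted p under 0.05, limma gave 9 higher and 0 lower on the deposited scale, and 3 higher and 5 lower after scaling. Stat3, the main transcription factor downstream of IL-6 and IL-22, stood at 1.01, 1.87 and 0.0507 in the WT libraries, and at 6.38, 9.06 and 8.69 in those of Ela1-Myc, 2.30 log2 units higher (limma adjusted p = 0.00028; 0.0799 after scaling). The groups did not overlap for Stat3, as for 75.3% of all tested genes.

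Il6st, the shared signalling receptor of the IL-6 family, rose by 1.92 log2 units on the deposited scale (limma adjusted p = 0.00135; 0.243 after scaling). Socs3, a feedback inhibitor that STAT3 induces, read 0.387 and 0.239 in WT replicates 2 and 3 and was listed at 0 in replicate 1, against 0.977, 3.06 and 2.99 for Ela1-Myc (limma adjusted p = 0.00127; 0.064 after scaling). The interferon-gamma receptor gene Ifngr1 and the TNF receptor gene Tnfrsf1a were higher by 2.52 and 1.54 log2 units (limma adjusted p = 0.00247 and 0.0141), but scaling took both out of the calls (limma adjusted p = 0.265 and 0.73). Extl3 stood at 7.71, 18.7 and 10.5 in the WT libraries, and at 17.8, 7.83 and 11.6 in those of Ela1-Myc, with a log2 change of 0.03 (limma adjusted p = 0.963) that became -1.37 after scaling (limma adjusted p = 0.0321). The IL-22 receptor gene Il22ra1 had a log2 change of -0.26 (limma adjusted p = 0.524), which was -1.25 after scaling (limma adjusted p = 0.0194). Among the 12 untested genes, Il22 and Il17a, named after their values were seen, stood in WT only at the value shared by 4459 rows and were listed at 0 in all Ela1-Myc libraries.

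The share of acinar injury and acute-phase genes called higher was 65.2% of those tested on the deposited scale, against 70.2% of all tested genes, and 30.4% after scaling, against 17.1%. Of 32 listed genes 23 were tested; 15 were higher, none lower and 8 not called (median 1.89, against 1.22 for all tested genes), and after scaling 7 were higher, 2 lower and 14 not called (median 1.11, against 0.22 for all tested genes). All 7 genes called higher after scaling (Lcn2, Lbp, Cd44, Timp1, Mmp7, Ccl2 and Atf3), and 10 of the 15 on the deposited scale, had a WT mean below 1. They met the filter through their Ela1-Myc values, which fixes their direction on the deposited scale. After scaling the filter favours a rise without fixing it, so these counts support nothing about the list. At an unadjusted p under 0.05, 1 gene was lower by limma on the deposited scale. The 2 genes called lower after scaling were Tff2 and Muc1 (log2 change -2.71 and -2.36, limma adjusted p = 0.00204 and 0.00497). A listed 0 occurred in 1 or more WT libraries for 10 of the 23 genes, and in 2 or more for 7; 4 genes of the list (Spp1, Krt19, Muc1 and Sox9) are also duct markers. Cd44, an adhesion receptor of injured and ductal epithelium, stood at 0.00702, 0 and 0 in the WT libraries, and at 8.18, 8.22 and 8.82 in those of Ela1-Myc (limma adjusted p = 2.27e-06; 0.000433 after scaling). Lcn2, an iron-binding acute-phase protein, stood at 1.33, 0.479 and 0 in the WT libraries, and at 10.5, 20.5 and 16.4 in those of Ela1-Myc (limma adjusted p = 2.65e-05; 0.0239 after scaling). Spp1, complement C3 and haptoglobin Hp had deposited-scale log2 changes of 5.54, 4.0 and 3.43, all called higher, and did not pass once scaled (limma adjusted p = 0.0723, 0.221 and 0.0722). Nupr1, a stress gene induced in acute pancreatitis, was not called: it stood at 296, 1965 and 1259 in the WT libraries, and at 1395, 444.3 and 609.1 in those of Ela1-Myc (limma adjusted p = 0.734; 0.0761 after scaling).

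**Figure D5:**
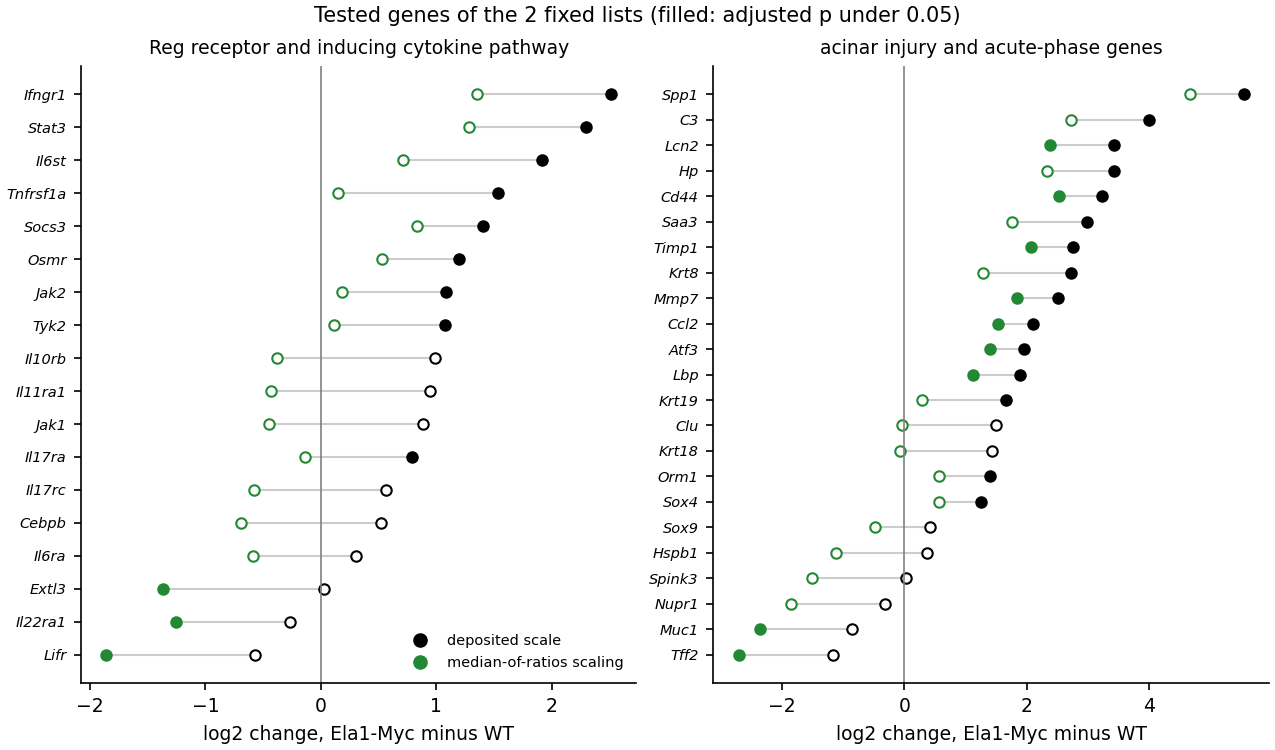
Log2 change (Ela1-Myc minus WT) of the tested genes of the receptor and cytokine list (left, 18 genes) and the injury and acute-phase list (right, 23 genes), on the deposited scale (black) and after median-of-ratios scaling (green); filled points have a limma adjusted p under 0.05. Most green points on the left are open, and the filled ones lie below 0. On the right 7 genes, all with a WT mean below 1, stay filled above 0, while Tff2 and Muc1 are filled below 0.

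On the deposited scale, summed macrophage and neutrophil, stellate and fibroblast, and endothelial markers were higher in every Ela1-Myc library than in every WT library. Those of islets, ducts and lymphocytes overlapped between the groups. On that scale 75.3% of all tested genes also lay wholly above WT, and the marker sums were not compared after scaling. The part of these cell types in the Reg values was not tested. In bulk tissue, fewer cells of a type and less RNA per cell cannot be told apart. The 10 islet markers summed to between 0.242 and 2479 in WT and between 2445 and 3363 in Ela1-Myc, and 8 of them, among them Ins2, were listed at 0 in WT replicate 1, the library in which Reg3a and Reg3b were also listed at 0. The 9 macrophage and neutrophil markers found in the files summed to between 17.9 and 89.0 in WT and between 262.3 and 889.4 in Ela1-Myc (6 of 8 tested higher on the deposited scale, 4 after scaling), and Cd68 was listed at 0 in all WT libraries. Within these sums, Lyz2 alone gave 28.1, 41.3 and 0 in WT and 190.3, 704.3 and 468 in Ela1-Myc. Emr1, Cd68, Csf1r, Lyz2, Itgam and Cd14 lay wholly above WT on the deposited scale, while S100a8, S100a9 and Mpo overlapped between the groups. The 8 duct markers summed to between 73.3 and 210 in WT and between 198.8 and 374 in Ela1-Myc, the 7 stellate and fibroblast markers to between 46.8 and 107.5 and between 358 and 540.3, and the 10 lymphocyte markers to between 0 and 42.0 and between 21.7 and 211.2. Within the duct sums, Muc1 alone gave 68.8, 129.5 and 121 in WT and 55.9, 48.8 and 66.2 in Ela1-Myc. The 4 endothelial markers summed to between 8.87 and 13.03 in WT and between 20.3 and 25.9 in Ela1-Myc. On the deposited scale limma called 6 of 8 tested islet markers higher, 5 of 7 duct, 8 of 8 lymphocyte, 6 of 7 stellate and fibroblast and 2 of 4 endothelial markers; after scaling these numbers were 2, 2, 1, 3 and 0. Among all tested genes the shares called higher were 70.2% and 17.1%. Acinar markers were present in all 6 libraries: the 33 digestive enzyme genes took between 90.6% and 90.9% of the summed values in WT and between 61.5% and 74.2% in Ela1-Myc, and the 6 acinar transcription factors summed to between 52.3 and 156.4 in WT and between 66.6 and 131.5 in Ela1-Myc. Of the 33 enzyme genes, limma called 6 higher and 12 lower on the deposited scale, and 4 higher and 26 lower after scaling. For the 6 acinar transcription factors it called 1 higher and 0 lower on the deposited scale, and 0 higher and 3 lower after scaling. Among all tested genes the shares called lower were 0.239% and 7.1%.

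Markers of intestinal epithelium, a tissue known to express Reg3b and Reg3g, were low in all libraries. The 14 such markers in the files summed to between 0.127 and 0.754 in WT and between 0.885 and 2.04 in Ela1-Myc, 8 of them were under 0.1 in all 6 libraries, and none reached the mean needed for testing. The highest was Lgals4, which read 0.0296, 0.335 and 0.357 in WT replicates 1 to 3 against 0.548, 0.426 and 0.853 for Ela1-Myc. Fabp1 and Apob were listed at 0 in all WT libraries, and Fabp2, Defa24, Alpi, Sis and Cdx2 in all Ela1-Myc libraries. In WT the latter genes stood only at the value shared by 4459 rows, so their zeros show no fall. The part of such cells in the Reg values was not tested.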

How the data were processed

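Replicate numbers follow accession order and only name the libraries. One file per library was used, each with 1 value per row in units of adjusted FPKM, per the file headers; the sources used here do not say how the authors adjusted it. Per the submitters' processing notes, the tools were Cufflinks 2.0.2, TopHat2 2.0.4 and Bowtie, with CASAVA 1.8, FastQC 0.9.4 and affy, on GRCm38 (mm10). Libraries were poly(A)-selected and stranded (dUTP method), per the labels' protocols, which also state an RNA integrity number above 8.5, while 5 of the 6 libraries carry lower values.

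All values were divided by 100000. Of 23099 symbols in 23422 rows, 187 had more than 1 row and were represented by that of highest mean. A gene was tested if its values averaged at least 1. The test was limma 3.58.1 (R 4.3.3) on log2(value + 1), two-sided, with group as the only term, a trend in the variance and Benjamini-Hochberg adjustment over all 8802 genes at 0.05; fold changes on this scale understate low genes. The scaling factors used 11198 genes above 0 in all 6 libraries. The fit was tested on simulated data. Single values were compared by exact permutation over libraries (scipy 1.17.1). Sequences were aligned with Biopython 1.88, promoters are from RefSeq (all 7 members matched) and plots were made in Python 3.11.15 with matplotlib 3.10.9.

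Read counts were not used here, so depth is unknown and no counting interval is given. No source says whether the libraries are from separate mice; p-values therefore reflect the spread among these libraries, which may be technical. The named genes are all 7 members, up to 5 called genes per list by size of change, 6 pathway genes whatever their result (Extl3, Il22ra1, Il6st, Stat3, Socs3 and Nupr1) and the 3 genes nearest to each member above 0 in all libraries; 1 gene of the receptor and cytokine list is not reported here and was left out of its counts. Lifr, Tff2, the values of Muc1 and Lyz2, and the overlap of single macrophage and neutrophil markers were added after seeing the data. The members, lists, rule and divisor were chosen with earlier results of these data known. Alternatives covered scaling, pseudocount, filter, RNA integrity as a covariate, array weights and each library left out; the ratio of Reg3b to Reg3d, that of Reg1 to the enzymes, and scaling combined with leaving out a library were added after seeing the data.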

Additional observations from a re-analysis of the deposited data

How the results depend on the processing

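Counts of calls moved with most choices, and the cause was not tested. Genes higher and lower numbered 6182 and 21 as reported, 1504 and 625 after median-of-ratios scaling, 996 and 1758 under quantile normalization, 1966 and 372 with equal totals without the digestive enzymes, 3369 and 6 with a pseudocount of 1 on the deposited scale, 3998 higher with RNA integrity as a covariate and 132 lower with array weights, whose fit did not fully converge. Without 1 library they ran from 4549 to 7113 higher and from 5 to 62 lower. Reg members called higher numbered 3 as reported, 1 under each of the 3 scalings, with a pseudocount of 0.1, with 1 on the deposited scale and with no filter, 0 among genes above 0 in all 6 libraries (which leaves out Reg3a, Reg3b and Reg3g), and 1 to 3 without 1 library; members called lower numbered 0 as reported, 2 after median-of-ratios scaling, with equal totals and with array weights, 1 under quantile normalization, and 0 to 1 without 1 library.

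Reg1 turned to 0.46 under quantile normalization, and without 1 library it ran from -0.80 to 0.022 (the latter without WT replicate 3). Reg2 turned to -0.70, -0.49 and -0.38 under median-of-ratios scaling, quantile normalization and equal totals, to -1.82 with array weights and without 1 library ran from -0.64 (without WT replicate 1) to 2.30; after scaling without 1 library it ran from -1.90 to 0.78 (-0.97 without WT replicate 2, and -0.64, -0.86 and -0.59 without Ela1-Myc replicate 1, 2 or 3). Reg3a turned to -0.39 after scaling without WT replicate 1. Reg3g kept its call in all 20 alternatives, Reg3b in 4 of 20 and Reg3a in 2 of 20. The difference in the family's share of summed values (0.13 percentage points) ran from -0.155 to 0.562 without 1 library, and that without the enzymes (-11.6) from -14.7 to -6.71. No paired analysis was possible because the labels carry no replicate numbers, and those used here only name libraries. Depth is unknown and sets no stated limit here.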
